A study of Homo sapiens with 6 samples.

Results

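The expression of 10 imprinted genes was followed through 6 mRNA libraries of H3122, a human lung adenocarcinoma cell line that is described elsewhere as carrying an EML4-ALK fusion. Counted per gene, ALK was at only 0.154 to 0.320 TPM in all 6 libraries, which goes against a high level of that fusion here; the fusion transcript itself was not measured. They are PEG10, SGCE, MEST, H19, IGF2, MEG3, PLAGL1, PHLDA2, GRB10 and NDN, and they are 10 of the 51537 genes in the deposited table of TPM (a level that divides reads by gene length and rescales each library to the same total). The genes were picked by symbol, and PEG10 was selected on its level in resistant against control libraries, so every difference between the groups for these 10 genes is a description and carries no test. The crizotinib-resistant group held 3 libraries of H3122 cells raised under stepwise exposure to crizotinib, a drug that blocks ALK and MET, from 0.1 to 10 µM. The control group held 3 libraries of H3122 cells without that selection. Per the labels the drug was kept on the cells as their medium was renewed during selection. The labels name no genotype change, no vehicle for the control cells and no number of resistant clones, and they do not say that replicates were separate cultures, so errors and p-values cover no more than library-to-library spread, and that spread may be technical.

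An imprinted gene is expressed mainly from the copy inherited from one parent, because a methylation mark set in the egg or the sperm keeps the other copy silent. Many imprinted genes act on fetal and placental growth, and they lie in clusters that share a control region. PEG10 and SGCE are such neighbours on chromosome 7: they are transcribed in opposite directions from one CpG-rich start region, both from the paternal copy. PEG10 is a retrotransposon-derived gene whose protein keeps gag-like and protease-like parts, is needed for the placenta in mice and is known for high levels in several cancers. These libraries measured poly(A) RNA per gene, so the parental copy and DNA methylation were not measured.

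PEG10, SGCE, MEST, H19 and PHLDA2 were lower in every resistant library than in every control library. PEG10 stood at 0.333% of its control mean, SGCE at 35.8%, MEST at 54.5% and PHLDA2 at 74.2%. GRB10 and IGF2 were expressed at a few TPM in both groups. PLAGL1 had at most a trace, and MEG3 and NDN were listed at 0 in all 6 libraries. A limma fit on log2(TPM + 1) covered the 16077 genes that reached 1 TPM in 3 or more libraries, and called means a Benjamini-Hochberg adjusted p under 0.05 over all of them. Of the 10 genes 7 passed that filter, and 5 of these were called lower, 0 higher and 2 not, beside 24.7% of all tested genes called lower and 24.0% higher, together 48.6%. Groups did not overlap for 6 of the 7, beside 57.9% of all tested genes. The median log2 difference of the 7 was -0.82, and that of all tested genes was -0.00. Because these genes were chosen by earlier results of the same comparison, nothing is read from the counts.

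**Figure D1:**
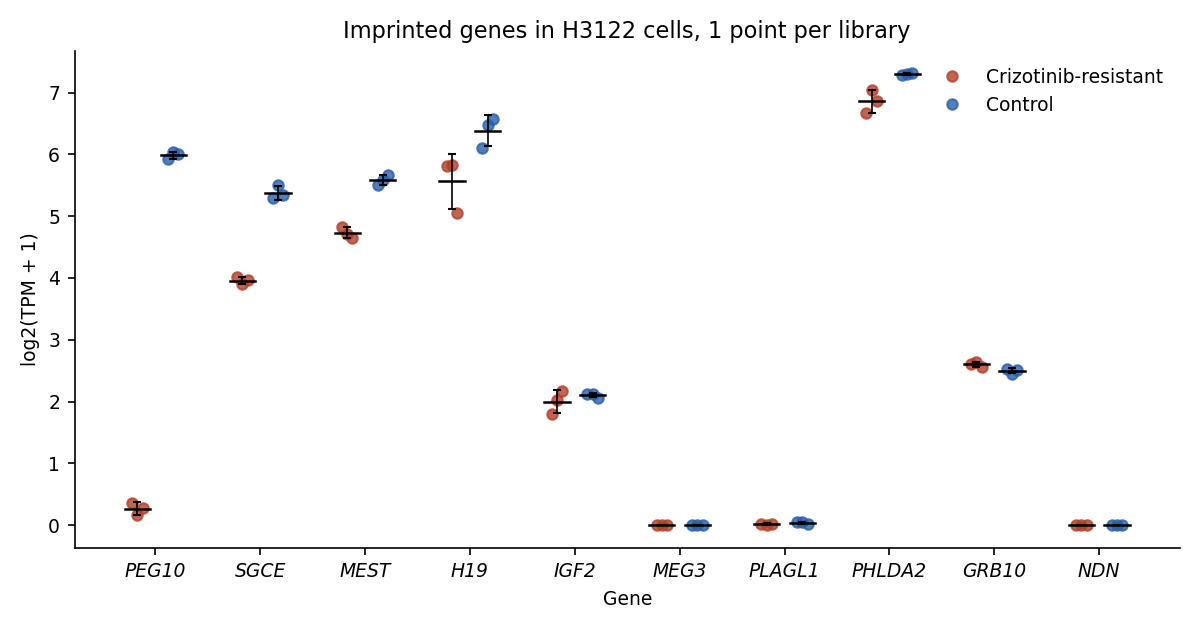
Level of each of the 10 genes in each library as log2(TPM + 1), with 3 crizotinib-resistant libraries left (red) and 3 control libraries right (blue); the horizontal line is the group mean and the bars are 1 SD. PEG10 lies between 0.116 and 0.289 TPM in resistant libraries and between 59.6 and 64.5 TPM in control libraries, and the groups of SGCE, MEST, H19, PHLDA2 and GRB10 do not overlap either.

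Some of the loci make microRNAs from the same transcript, and their sequences are shown because MEST and H19 are host genes whose level was measured here while the mature microRNAs, being too short and without a poly(A) tail, were not. MIR335 lies in an intron of MEST and MIR675 in an exon of H19. The mature sequences below are from RefSeq on GRCh38.p14, with the seed (bases 2 to 8) in capitals, and no seed is shared among them.
hsa-miR-335-5p (chromosome 7, 130496126 to 130496148, plus strand): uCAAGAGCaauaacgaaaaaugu
hsa-miR-335-3p (chromosome 7, 130496162 to 130496183, plus strand): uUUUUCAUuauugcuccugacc
hsa-miR-675-5p (chromosome 11, 1996800 to 1996822, minus strand): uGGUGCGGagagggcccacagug
hsa-miR-675-3p (chromosome 11, 1996768 to 1996787, minus strand): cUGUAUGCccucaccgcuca
The table had a row for MIR335, at 0 TPM in all 6 libraries.

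Start regions were compared because imprints are written on CpG sites. RefSeq windows of 300 bases, 250 before to 50 after a start on GRCh38.p14, were at hand for 6 of the 10 genes (PLAGL1, GRB10, MEST, H19, MEG3 and NDN), with 20 windows in all since several genes have more than 1 start. Below are the MEST window richest in CpG, the H19 window and the NDN window, chosen to set a gene lower in resistant cells, a noncoding RNA with few CpG and a gene listed at 0 side by side. CpG sites are in capitals.
MEST (chr7:130491835-130492134, plus strand): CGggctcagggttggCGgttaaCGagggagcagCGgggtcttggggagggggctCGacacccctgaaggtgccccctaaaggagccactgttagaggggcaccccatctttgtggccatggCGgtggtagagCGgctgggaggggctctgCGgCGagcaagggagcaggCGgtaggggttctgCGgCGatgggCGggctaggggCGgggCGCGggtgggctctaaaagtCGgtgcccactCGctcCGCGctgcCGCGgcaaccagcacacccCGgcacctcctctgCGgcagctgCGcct
H19 (chr11:2001217-2001516, minus strand): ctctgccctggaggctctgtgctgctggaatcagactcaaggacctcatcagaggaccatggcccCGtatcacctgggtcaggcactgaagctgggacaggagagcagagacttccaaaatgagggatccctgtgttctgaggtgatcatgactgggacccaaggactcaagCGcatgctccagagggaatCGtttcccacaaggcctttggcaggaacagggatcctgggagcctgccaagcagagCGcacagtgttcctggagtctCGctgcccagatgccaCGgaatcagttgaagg
NDN (chr15:23687256-23687555, minus strand): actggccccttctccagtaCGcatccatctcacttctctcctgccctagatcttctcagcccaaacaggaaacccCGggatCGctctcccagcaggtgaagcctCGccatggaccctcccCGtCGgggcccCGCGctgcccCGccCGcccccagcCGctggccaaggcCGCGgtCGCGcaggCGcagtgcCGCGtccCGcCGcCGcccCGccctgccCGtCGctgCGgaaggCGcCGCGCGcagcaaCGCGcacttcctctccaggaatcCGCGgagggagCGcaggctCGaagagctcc
The MEST window had 25 CpG and 70.3% G or C, the H19 window had 6 CpG and 57.7%, and the NDN window had 35 CpG and 72.0%. Over all 35116 RefSeq windows of this length the median was 14 CpG, with quartiles of 4 and 28. The motif TGCCGC, which the imprint-keeping zinc finger protein ZFP57 binds when methylated, was searched on both strands. It was present in 10 of the 20 windows of these genes and in 16.7% of all windows. The motif itself holds a CpG, and the windows were not matched for CpG content, so no enrichment is read from these shares. Within MEST and within MEG3 some windows overlap one another, so the 10 are not separate regions. The MEST window shown had 3 matches, the NDN window had 1 and the H19 window had none, and a match of letters shows neither binding nor methylation.

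PEG10 (ENSG00000242265) spans positions 94656325 to 94669695 on the plus strand of chromosome 7 in GENCODE 29 on GRCh38. Its level was 0.289, 0.116 and 0.218 TPM in resistant libraries 1 to 3, against 59.6, 64.5 and 63.1 TPM in control libraries 1 to 3. The groups did not overlap, and each resistant library was near the floor. These levels correspond to an estimated 18.2, 7.06 and 14.1 reads in the resistant libraries and to 3622, 3657 and 4433 reads in the control libraries. The means were 0.208 ± 0.0867 TPM in resistant and 62.4 ± 2.55 TPM in control libraries (SD, n = 3 each), so the control mean was 300.5 times the resistant mean. Adding 1 to TPM shrinks the difference of a gene that is near 0 in one group: on that log2 scale the difference (resistant minus control) was -5.72 ± 0.08 (SE), with a 95% interval from -5.91 to -5.52. This was the lowest difference among all tested genes, and PEG10 passed the filter through its control libraries alone. Among those genes 84.3% had a lower mean level than PEG10 in control libraries and 0.193% in resistant libraries. In bulk RNA, fewer cells with PEG10 and less PEG10 RNA per cell cannot be told apart.

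SGCE (ENSG00000127990; chromosome 7, 94524204 to 94656572, minus strand) encodes epsilon-sarcoglycan, a membrane glycoprotein whose loss from the paternal copy causes myoclonus-dystonia. Resistant libraries had 15.1, 13.9 and 14.6 TPM, and control libraries had 38.1, 44.2 and 39.4 TPM. All 3 resistant libraries were below all 3 control libraries, yet SGCE remained clearly detected, unlike PEG10. The means were 14.5 ± 0.618 TPM in resistant and 40.6 ± 3.26 TPM in control libraries (SD, n = 3 each), a log2 difference of -1.42 ± 0.07 (SE), at rank 116 counted from the lowest difference of all tested genes. The annotated 5′ ends of SGCE and PEG10 overlap by 248 bp on opposite strands. The library kit keeps the strand, but whether the authors' counting used it is not given in the sources used here, so reads in that overlap cannot be assigned with certainty.

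The balance between these neighbours differed between the groups. The ratio of PEG10 TPM to SGCE TPM was 0.0191, 0.00838 and 0.0149 in resistant libraries 1 to 3, against 1.57, 1.46 and 1.60 in control libraries 1 to 3. PEG10 was thus the higher of the pair, per length, in every control library and the lower in every resistant library. The order in control libraries rests on the length used: all annotated exons together span 20884 bases for SGCE and 6689 for PEG10. By estimated reads SGCE was the higher there, with 7224, 7830 and 8634 reads in control libraries 1 to 3. PEG10 had 3622, 3657 and 4433 reads in them. The mean ratio was 0.0141 ± 0.00541 in resistant and 1.54 ± 0.0752 in control libraries (SD, n = 3 each). On the log2(TPM + 1) scale PEG10 minus SGCE was -3.69 ± 0.05 in resistant and 0.61 ± 0.07 in control libraries (SD, n = 3 each), a difference between groups of -4.30 ± 0.05 (SE).

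**Figure D2:**
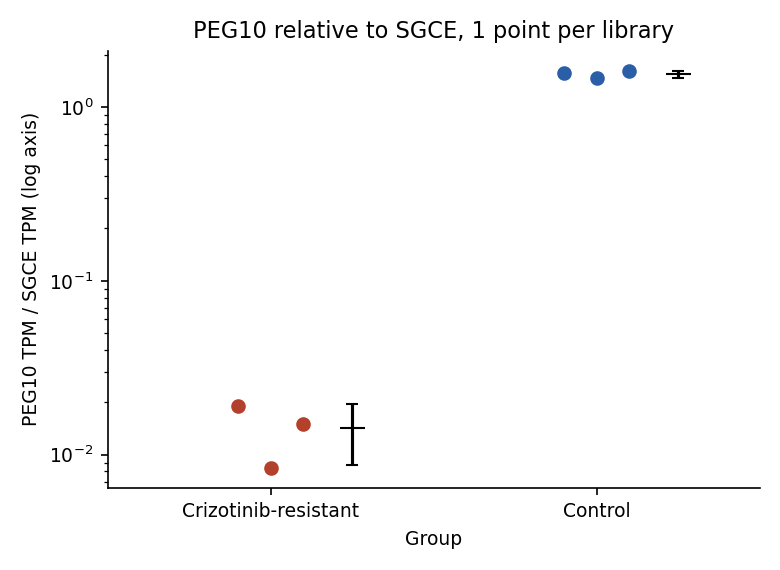
Ratio of PEG10 TPM to SGCE TPM in each library on a log axis, with crizotinib-resistant libraries left (red) and control libraries right (blue); the black bar beside each group is its mean ± SD. The 3 resistant libraries lie between 0.00838 and 0.0191, and the 3 control libraries between 1.46 and 1.60.

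Genes on either side of PEG10 were mostly lower in resistant cells as well, with smaller differences than PEG10 on the log2(TPM + 1) scale. With neighbours taken by a gene's first coordinate within 1 Mb of PEG10, SGCE left aside, 8 genes were tested, of which 7 were called lower, 0 higher and 1 was not called, with a median log2 difference of -0.82. That stands beside 24.7% of all tested genes called lower. CASD1, a sialic acid O-acetyltransferase gene, overlaps the far end of SGCE on the opposite strand. If counting ignored the strand, reads in that overlap cannot be told apart. CASD1 averaged 3.46 ± 0.580 TPM in resistant and 10.1 ± 0.493 TPM in control libraries, a log2 difference of -1.32 ± 0.11 (adjusted p = 8.59e-05). BET1, a Golgi SNARE gene, averaged 7.70 ± 0.761 TPM in resistant and 19.9 ± 2.04 TPM in control libraries (-1.27 ± 0.10, adjusted p = 5.8e-05). TFPI2, an inhibitor of serine proteases that is maternally expressed in placenta, averaged 13.7 ± 0.409 TPM in resistant and 30.9 ± 2.12 TPM in control libraries (-1.12 ± 0.06, adjusted p = 1.54e-05). GNGT1, a transducin gamma subunit gene, falls outside that count because its first coordinate lies more than 1 Mb away, although its annotated span contains TFPI2; it is named after its values were seen. GNGT1 was called lower, with 0, 0.0467 and 0 TPM in resistant and 5.73, 5.25 and 4.72 TPM in control libraries (-2.61 ± 0.14, adjusted p = 1.04e-05). Like PEG10, it passed the filter through its control libraries alone, so its p-value is not read as support. SGCE, CASD1, BET1 and TFPI2 had log2 differences from -1.42 to -1.12, GNGT1 was lower than these, and PEG10 was at -5.72. Adding 1 to TPM shrinks the difference of GNGT1 more than that of PEG10, because its control level was lower. The mean of GNGT1 was 0.0156 TPM in resistant and 5.23 TPM in control libraries. A level near 0 in every resistant library was thus not particular to PEG10 in this region.

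The remaining neighbours of PEG10 moved less. GNG11, a G protein gamma subunit, had a log2 difference of -0.70 ± 0.17 (adjusted p = 0.0116), and the antisense transcript AC006378.2 had -0.93 ± 0.12 (adjusted p = 6.46e-04), both on the side of CASD1. AC006378.2 overlaps BET1 on the opposite strand, with the same limit as CASD1 and SGCE, so the neighbours called lower may not all be separate measurements. On the other side PPP1R9A, the gene of the actin-binding protein neurabin, was not called, with 2.80 ± 0.415 TPM in resistant and 3.09 ± 0.350 TPM in control libraries (-0.11 ± 0.13, adjusted p = 0.517). PON2, a paraoxonase gene, was at 20.8 ± 1.71 TPM in resistant and 27.0 ± 2.29 TPM in control libraries (-0.36 ± 0.08, adjusted p = 0.0087). PDK4, a kinase that restrains pyruvate dehydrogenase, was at 2.02 ± 0.0983 TPM in resistant and 3.77 ± 0.344 TPM in control libraries (-0.66 ± 0.11, adjusted p = 0.0019). The median over all 789 tested genes of chromosome 7 was -0.29, against -0.00 over all tested genes. Relative to that chromosome median PEG10 was at -5.43 and SGCE at -1.13; the part of the chromosome-wide shift in the neighbours' values was not tested.

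**Figure D3:**
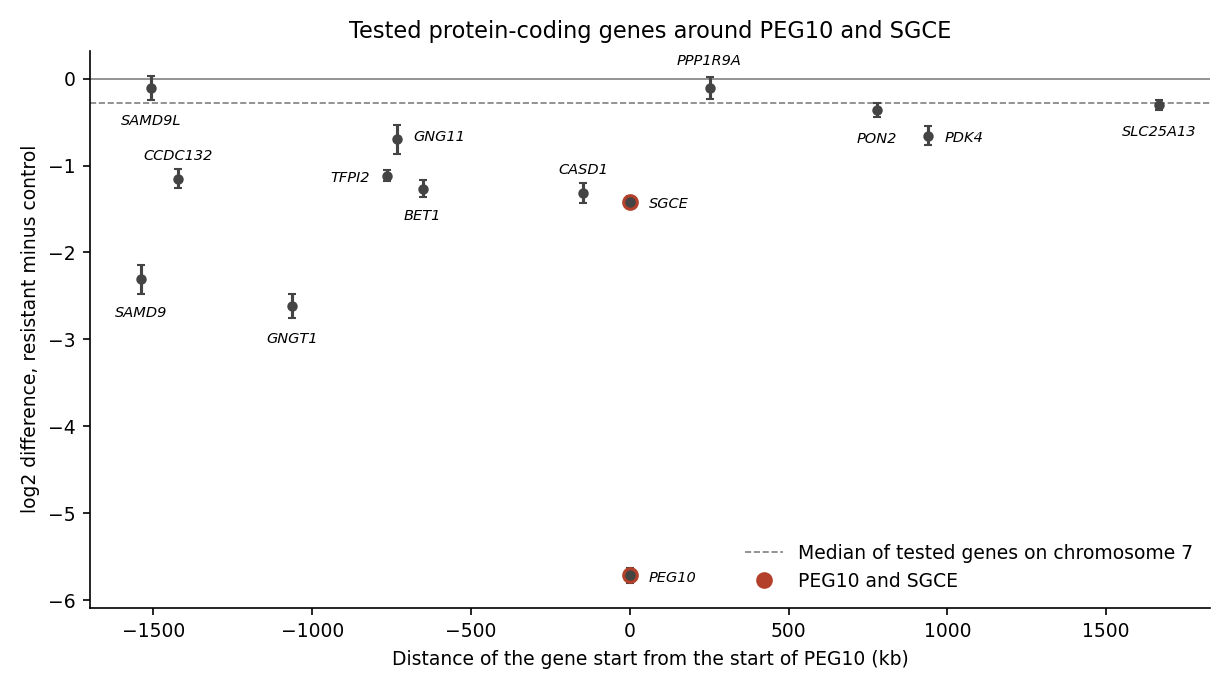
Log2 difference (resistant minus control, on log2(TPM + 1), bars 1 SE) of the tested protein-coding genes around PEG10, against the distance in kb of each gene's start from the start of PEG10; the dashed line is the median of tested genes on chromosome 7, at -0.29. PEG10 lies at -5.72 and its head-to-head neighbour SGCE at -1.42, with CASD1 (-1.32), BET1 (-1.27) and TFPI2 (-1.12) close to SGCE, GNGT1 (-2.61) below them and PPP1R9A (-0.11) on the other side.

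MEST (ENSG00000106484; chromosome 7, 130486171 to 130506465, plus strand), a paternally expressed gene of the alpha/beta hydrolase family, was another of the lower genes. It had 27.5, 25.2 and 24.1 TPM in resistant libraries, against 44.1, 47.0 and 49.7 TPM in control libraries, with no overlap. The means were 25.6 ± 1.71 TPM in resistant and 47.0 ± 2.78 TPM in control libraries (SD, n = 3 each), and the log2 difference was -0.85 ± 0.07 (SE). Relative to the median of chromosome 7 it was -0.57. The nearest genes with at least 1 TPM were CEP41, a centrosomal protein gene that was called lower (-0.54 ± 0.08, adjusted p = 0.0011), and COPG2, a coatomer gene whose 3′ end overlaps MEST and which was not called (30.4 ± 1.99 TPM in resistant and 33.4 ± 1.74 TPM in control libraries, -0.13 ± 0.06, adjusted p = 0.123).

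H19 and IGF2 form the best known imprinted pair, on chromosome 11, with the noncoding RNA H19 made from the maternal copy and the growth factor IGF2 from the paternal copy under one control region. H19 (ENSG00000130600, 1995176 to 2001470, minus strand) had 55.3, 55.9 and 32.2 TPM in resistant libraries, against 67.6, 87.8 and 94.6 TPM in control libraries. The groups did not overlap, but resistant library 3 stood well below the other resistant libraries and control library 1 below the other control libraries. The means were 47.8 ± 13.5 TPM in resistant and 83.3 ± 14.0 TPM in control libraries (SD, n = 3 each), a log2 difference of -0.82 ± 0.23 (SE) with a 95% interval from -1.37 to -0.26. The SD of its log2 values was larger than that of 94.0% of tested genes in resistant and of 86.7% in control libraries. Without resistant library 3 the difference was -0.56, and H19 was not called without control library 2 (-0.77), without control library 3 (-0.72), without a filter on low values or with a filter of 5 TPM.

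IGF2 (ENSG00000167244, 2129112 to 2149603, minus strand) was at 2.50, 3.08 and 3.50 TPM in resistant and 3.34, 3.38 and 3.18 TPM in control libraries, and the groups overlapped. The means were 3.03 ± 0.504 TPM in resistant and 3.30 ± 0.107 TPM in control libraries (SD, n = 3 each), and the log2 difference of -0.10 ± 0.12 had a 95% interval from -0.39 to 0.18. The antisense transcript IGF2-AS, which overlaps IGF2 and whose reads cannot be told apart from it if counting ignored the strand, averaged 1.06 TPM in resistant and 1.30 TPM in control libraries. The read-through gene INS-IGF2 was listed at 0 in all 6 libraries. It overlaps IGF2 on the same strand, and how reads shared by both genes were counted is not given. The level of IGF2 and the 0 of INS-IGF2 are therefore uncertain. MRPL23-AS1 was the nearest gene beyond H19 with a mean of at least 1 TPM over all libraries. It was called higher, with 2.04 ± 0.236 TPM in resistant and 0.972 ± 0.216 TPM in control libraries (0.63 ± 0.15, adjusted p = 0.0106). Its control libraries were at 0.880, 0.818 and 1.22 TPM, so its resistant libraries were enough to pass the filter, and its p-value is not read as support.

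PHLDA2 (ENSG00000181649; chromosome 11, 2928273 to 2929455, minus strand), a maternally expressed pleckstrin homology domain gene that restrains placental growth in mice, had the highest level of the 10 genes in both groups. It was at 101, 131 and 116 TPM in resistant libraries and at 155, 156 and 158 TPM in control libraries. The resistant libraries were more spread than the control libraries and all of them were lower. The means were 116 ± 15.0 TPM in resistant and 156 ± 1.48 TPM in control libraries (SD, n = 3 each), a log2 difference of -0.43 ± 0.09 (SE). Both nearest genes were called lower too: SLC22A18, a maternally expressed transporter gene, with 14.8 ± 0.280 TPM in resistant and 20.2 ± 1.86 TPM in control libraries (-0.42 ± 0.07, adjusted p = 0.0025), and NAP1L4, a nucleosome assembly gene (-0.16 ± 0.04, adjusted p = 0.0129). The call of NAP1L4 was lost without control library 2 or 3 (highest adjusted p = 0.0572). CDKN1C, a cyclin-dependent kinase inhibitor of the same imprinted cluster, was called higher, with 4.11 ± 0.447 TPM in resistant and 2.43 ± 0.148 TPM in control libraries (0.57 ± 0.11, adjusted p = 0.0039). The long noncoding RNA KCNQ1OT1, which silences this cluster on the paternal copy, was at 0.399 to 0.486 TPM in resistant and 0.402 to 0.433 TPM in control libraries, below the filter.

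GRB10 (ENSG00000106070; chromosome 7, 50590063 to 50793462, minus strand) encodes an adaptor that binds the insulin and IGF1 receptors and damps their signal. It had 5.08, 5.25 and 4.89 TPM in resistant libraries, against 4.75, 4.46 and 4.73 TPM in control libraries. The groups did not overlap, but the gap was small, and the difference was not called. The means were 5.07 ± 0.182 TPM in resistant and 4.65 ± 0.160 TPM in control libraries (SD, n = 3 each), with a log2 difference of 0.10 ± 0.08 and a 95% interval from -0.09 to 0.30. Relative to the median of its chromosome the value was 0.39. Its nearest neighbours were FIGNL1 (0.07 ± 0.08, adjusted p = 0.523) and an antisense transcript on the other side, which was called higher (0.78 ± 0.22, adjusted p = 0.021) but not without resistant library 3 or control library 2. That transcript passed the filter through its resistant libraries alone.

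The last genes were at or near 0. PLAGL1 (ENSG00000118495; chromosome 6, 143940300 to 144064599, minus strand), a zinc finger transcription factor gene known from transient neonatal diabetes, was at 0.0172, 0 and 0.0167 TPM in resistant and 0.0356, 0.0382 and 0.0154 TPM in control libraries. That is at most an estimated 2.83 reads in a library, so no difference could be detected at this depth. MEG3 (ENSG00000214548; chromosome 14, 100779410 to 100861031, plus strand), a maternally expressed noncoding RNA, and NDN (ENSG00000182636; chromosome 15, 23685400 to 23687330, minus strand), the gene of the growth suppressor necdin, were listed at 0 in all 6 libraries. Other genes of those clusters were listed at 0 as well, among them DLK1 beside MEG3 and SNRPN beside NDN. SNRPN is widely expressed, and how the authors' counter treated reads of overlapping genes is not given in the sources used here, so a listed 0 need not mean that the RNA was absent. DIO3, the next expressed gene beyond MEG3, encodes the enzyme that inactivates thyroid hormone and was called lower, with 0.236 ± 0.146 TPM in resistant and 3.59 ± 0.946 TPM in control libraries (-1.88 ± 0.20, adjusted p = 2.15e-04). DIO3 passed the filter through its control libraries alone, so its p-value is not read as support. MKRN3, beside NDN, was called higher, with 7.39 ± 0.503 TPM in resistant and 6.04 ± 0.318 TPM in control libraries (0.25 ± 0.08, adjusted p = 0.037). That call was lost with any 1 of the 6 libraries left out and without the filter on low values (highest adjusted p = 0.112).

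The order of mean TPM depends on the length by which each gene was divided. In resistant libraries it ran PHLDA2, H19, MEST, SGCE, GRB10, IGF2, PEG10 and PLAGL1, then MEG3 and NDN at 0. Control libraries ran PHLDA2, H19, PEG10, MEST, SGCE, GRB10, IGF2 and PLAGL1, then MEG3 and NDN at 0. The change of place was that of PEG10, which came right after H19 in control libraries and right after IGF2 in resistant libraries. Neighbours in the order whose ranges overlapped were MEST and SGCE in control libraries, PLAGL1 and MEG3 in resistant libraries, and MEG3 and NDN in both.

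Other imprinted genes, from lists of known imprinted human loci, were called in both directions. Of 63 such genes 57 were in the table and 30 passed the filter, and of these 10 were called higher, 7 lower and 13 not called, with a median log2 difference of -0.02. The share called, 56.7%, stands beside 48.6% over all tested genes. Among 11 tested genes expressed from the paternal copy, as PEG10 and SGCE are, 5 were called higher, 1 lower and 5 not, with a median of 0.18. Among 11 expressed from the maternal copy 3 were called higher, 3 lower and 5 not (median -0.11), and among 8 whose imprint depends on tissue or transcript 2 were called higher, 3 lower and 3 not (median -0.12). The 7 called lower were DIO3, TFPI2, OSBPL5, SLC22A18, CASD1, RB1 and TRAPPC9, of which TFPI2 and CASD1 lie beside PEG10 and OSBPL5 and SLC22A18 beside PHLDA2.

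Among the paternally expressed genes FAM50B, a retrogene of unclear function, was higher, with 15.0 ± 0.406 TPM in resistant and 6.62 ± 0.244 TPM in control libraries (1.07 ± 0.06, adjusted p = 1.91e-05). NNAT, the gene of the membrane proteolipid neuronatin, was higher, with 9.49 ± 1.18 TPM in resistant and 5.73 ± 0.536 TPM in control libraries (0.64 ± 0.11, adjusted p = 0.0020). ZNF331, a zinc finger gene, was higher by 0.44 ± 0.09 on the log2 scale (adjusted p = 0.0041). PEG3, a large zinc finger gene named, like PEG10, for paternal expression, was listed at 0 in all libraries. So was ZIM2, which overlaps PEG3 on the same strand, and a listed 0 need not mean that the RNA was absent. TP73, a transcription factor gene that is maternally expressed in some tissues, was higher, with 11.2 ± 0.470 TPM in resistant and 5.76 ± 0.0681 TPM in control libraries (0.85 ± 0.07). OSBPL5, an oxysterol-binding protein gene, was lower, with 5.63 ± 0.568 TPM in resistant and 8.82 ± 0.632 TPM in control libraries (-0.57 ± 0.09, adjusted p = 0.0019). BLCAP, which contains NNAT in an intron, was higher, with 198 ± 8.51 TPM in resistant and 118 ± 3.02 TPM in control libraries (0.74 ± 0.05). The BLCAP gene lies on the opposite strand to NNAT and is far more abundant. If counting ignored the strand, the value of NNAT may include BLCAP reads, and this was not tested. GNAS, the gene of the stimulatory G protein alpha subunit, was higher, with 335 ± 7.91 TPM in resistant and 284 ± 1.58 TPM in control libraries (0.24 ± 0.04, adjusted p = 0.0012). RB1, the retinoblastoma gene, was lower, with 9.95 ± 1.48 TPM in resistant and 14.6 ± 1.46 TPM in control libraries (-0.51 ± 0.11, adjusted p = 0.0077); the median of its chromosome 13 was -0.47.

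**Figure D4:**
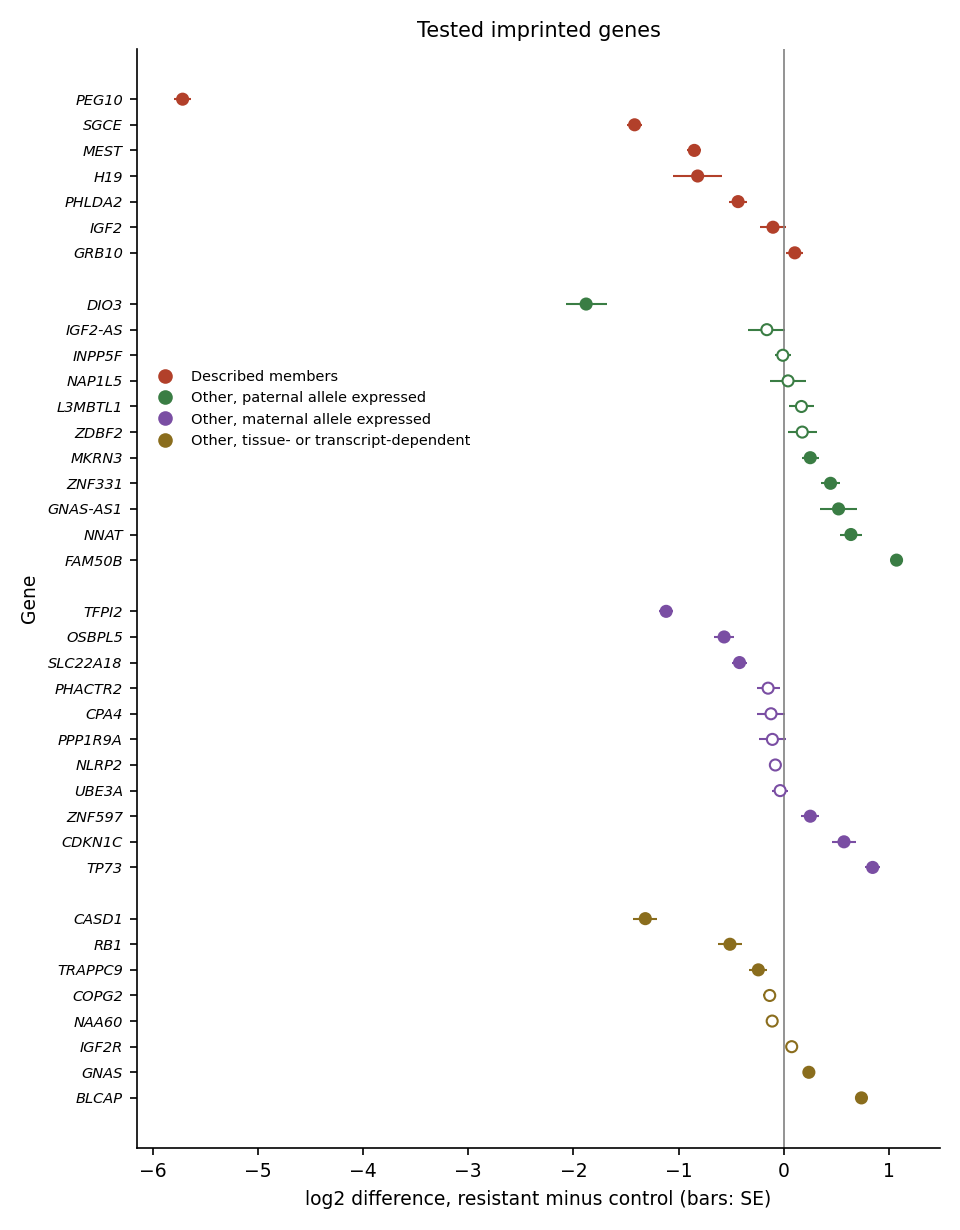
Log2 difference (resistant minus control, bars 1 SE) of the tested imprinted genes, grouped as the 7 described genes (red), other genes expressed from the paternal copy (green) or the maternal copy (purple), and genes whose imprint depends on tissue or transcript (brown). Filled points outside the red group passed the threshold and open points did not; red points carry no test. PEG10 at -5.72 is apart from the rest, which run from -1.88 for DIO3 to 1.07 for FAM50B.

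Relatives of PEG10 are genes derived from the gag part of retrotransposons, and 9 of 24 such genes passed the filter. Of these 1 was called higher, 4 lower and 4 not, with a median log2 difference of -0.37. Over all tested genes 24.0% were called higher and 24.7% lower. The lower ones were RTL8A, RTL8B, RTL8C and LDOC1. RTL8A averaged 97.6 ± 7.63 TPM in resistant and 170 ± 8.68 TPM in control libraries (-0.79 ± 0.07). RTL8C averaged 105 ± 2.90 TPM in resistant and 193 ± 10.5 TPM in control libraries (-0.86 ± 0.05), and the less abundant RTL8B had a log2 difference of -1.05 ± 0.06. LDOC1 averaged 130 ± 3.30 TPM in resistant and 172 ± 6.09 TPM in control libraries (-0.40 ± 0.04). The RTL8 genes are near-identical copies, so how their reads were divided is uncertain. All 4 lie on the X chromosome, whose tested genes had a median of -0.28. PNMA1, a gag-like gene on chromosome 14, was higher (77.6 ± 3.94 TPM in resistant and 63.4 ± 2.50 TPM in control libraries, 0.29 ± 0.05, adjusted p = 0.0032).

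Partners of sarcoglycans in the dystroglycan complex, which ties the cytoskeleton to the matrix, moved in both directions. Of 23 genes 13 were tested, with 4 called higher, 7 lower and 2 not, and a median of -0.26. These counts stand beside 24.0% called higher and 24.7% called lower over all tested genes. The syntrophin gene SNTB2 averaged 22.2 ± 0.489 TPM in resistant and 44.4 ± 1.14 TPM in control libraries (-0.97 ± 0.05, adjusted p = 7.23e-06). Sarcospan (SSPN) was lower by 0.91 ± 0.14 and the dystrobrevin gene DTNB by 0.84 ± 0.11 on the log2 scale. The dystroglycan gene DAG1, named after its values were seen, was called higher. It averaged 225 ± 11.7 TPM in resistant and 186 ± 2.02 TPM in control libraries (0.28 ± 0.05).

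The insulin-like growth factor axis holds the ligand IGF2, the adaptor GRB10 and their receptors and binding proteins. Of 24 other genes 19 were tested, with 8 called higher, 8 lower and 3 not, and a median of 0.08. The shares over all tested genes were 24.0% called higher and 24.7% called lower. IGFBP5, a secreted IGF-binding protein, averaged 1.11 ± 0.106 TPM in resistant and 38.4 ± 2.26 TPM in control libraries (-4.22 ± 0.08, adjusted p = 2.93e-07). IGFBP4 was lower, with 26.0 ± 3.13 TPM in resistant and 53.0 ± 2.61 TPM in control libraries (-1.01 ± 0.09). The receptor gene IGF1R was lower, with 10.1 ± 0.728 TPM in resistant and 16.2 ± 0.0874 TPM in control libraries (-0.63 ± 0.07, adjusted p = 2.38e-04), and so was the receptor substrate IRS2, with 28.3 ± 0.284 TPM in resistant and 53.1 ± 1.47 TPM in control libraries (-0.89 ± 0.04). STC2, an inhibitor of the protease that frees IGF from IGFBP4, was higher, with 45.9 ± 2.13 TPM in resistant and 28.6 ± 0.951 TPM in control libraries (0.66 ± 0.05). The protease gene PAPPA, named after its values were seen, was higher too, with 2.04 ± 0.0729 TPM in resistant and 0.287 ± 0.049 TPM in control libraries (1.24 ± 0.15, adjusted p = 3.99e-04). PAPPA passed the filter through its resistant libraries alone, so its p-value is not read as support. IGF2R, the receptor that clears IGF2 and is itself imprinted in mice, was not called (92.4 ± 1.87 TPM in resistant and 87.6 ± 1.59 TPM in control libraries, adjusted p = 0.150). Of the RNA-binding proteins of the IGF2 messenger, IGF2BP2 was higher by 0.16 ± 0.05 and IGF2BP3 lower by 0.25 ± 0.08 on the log2 scale, and IGF2BP1 was not called (0.08 ± 0.04, adjusted p = 0.154). IGF2BP2 was not called without resistant library 1 or 2 or control library 2 or 3, nor IGF2BP3 without resistant library 2 or 3 or control library 2 or 3.

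Of 28 genes that set, keep or remove imprints 27 were in the table and 20 were tested, with 1 called higher, 6 lower and 13 not, and a median of -0.09. Among all tested genes 24.0% were called higher and 24.7% lower. The maintenance methyltransferase DNMT1 averaged 79.7 ± 2.0 TPM in resistant and 79.8 ± 2.62 TPM in control libraries (-0.00 ± 0.04, adjusted p = 0.985), and the corepressor TRIM28 averaged 960 ± 59.3 TPM in resistant and 946 ± 7.08 TPM in control libraries (0.02 ± 0.05, adjusted p = 0.765). The de novo methyltransferase DNMT3B was the one called higher, with 19.1 ± 1.17 TPM in resistant and 12.6 ± 0.330 TPM in control libraries (0.57 ± 0.06, adjusted p = 2.95e-04). DNMT3A was lower, with 23.3 ± 0.237 TPM in resistant and 29.4 ± 0.635 TPM in control libraries (-0.32 ± 0.05). CTCF, the insulator protein of the H19 and IGF2 control region, was lower, with 45.8 ± 2.70 TPM in resistant and 59.6 ± 2.33 TPM in control libraries (-0.37 ± 0.06), and the chromatin gene ARID4B was lower by 0.45 ± 0.14 on the log2 scale. ARID4B lost its call without resistant library 2 or 3 or control library 2 or 3. ZFP57 averaged 0.553 ± 0.168 TPM in resistant and 0.135 ± 0.0314 TPM in control libraries and was below the filter.

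Relatives of the remaining members gave 9 tested of 12 genes, with 4 called higher, 2 lower and 3 not, and a median of 0.14. Beside them, 24.0% of all tested genes were called higher and 24.7% lower. PHLDA3, a pleckstrin homology domain gene related to PHLDA2, was higher, with 202 ± 7.02 TPM in resistant and 143 ± 0.171 TPM in control libraries (0.50 ± 0.04). ABHD10, a hydrolase gene of the fold that MEST shares, was higher by 0.56 ± 0.07 on the log2 scale, as was NDNL2, a MAGE gene related to NDN, by 0.26 ± 0.07. NDNL2 lost its call without resistant library 2 or 3 or control library 2. MAGED2 of the same MAGE family was lower by 0.28 ± 0.05.

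**Figure D5:**
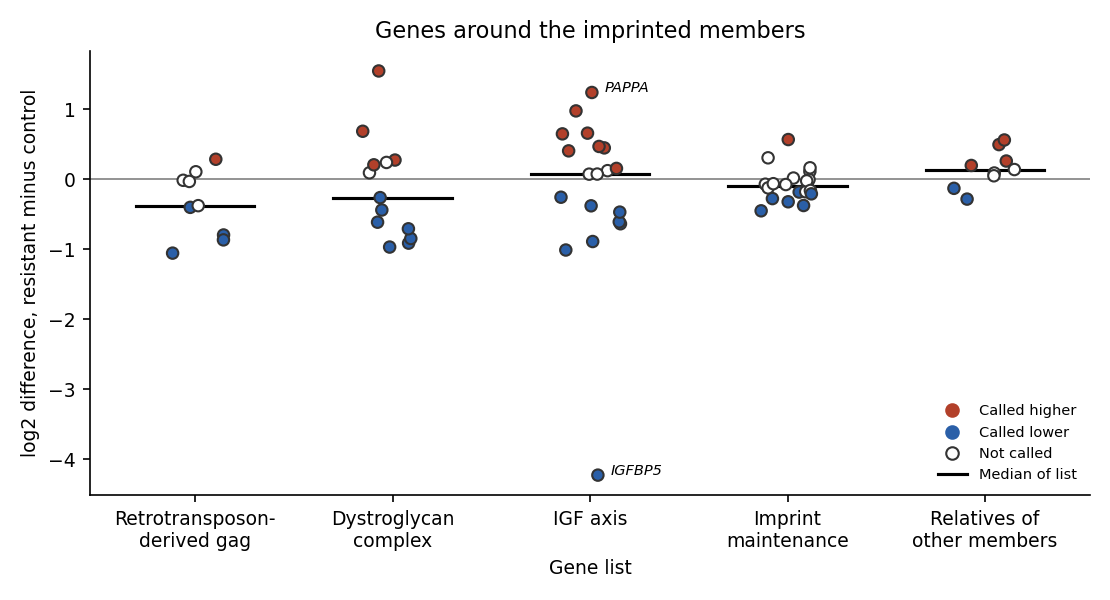
Log2 difference (resistant minus control) of each tested gene in 5 lists around the 10 genes, 1 point per gene, with genes called higher in red, called lower in blue and not called open; the black line is the median of the list. IGFBP5 lies lowest at -4.22, and the list medians run from -0.37 to 0.14.

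The genes most like PEG10 across the 6 libraries were found by the Euclidean distance between log2(TPM + 1) values centred on each gene's own mean, among tested genes whose higher group averaged 5 TPM or more. They were TRBJ2-3 (distance 1.33), COL4A2 (1.76), TRBC2 (1.80), IGFBP5 (1.85) and MUC5B (2.09). All 5 were lower in every resistant library than in every control library, which follows from how they were chosen. COL4A2, a type IV collagen gene, averaged 0.135 ± 0.0374 TPM in resistant and 21.2 ± 0.0988 TPM in control libraries. MUC5B, a gel-forming airway mucin gene on chromosome 11, averaged 0.652 ± 0.0132 TPM in resistant and 26.0 ± 2.37 TPM in control libraries. The T cell receptor beta segments TRBJ2-3 and TRBC2 lie on chromosome 7, far from PEG10: TRBJ2-3 was listed at 0 in all resistant libraries, and TRBC2 averaged 0.790 ± 0.307 TPM in resistant and 33.1 ± 3.49 TPM in control libraries. TRBJ2-3 spans only positions 142796847 to 142796895, so its control values of 35.9, 43.4 and 17.5 TPM rest on few reads.

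The libraries held an estimated 29856900 to 36695600 reads each, and 15485 to 16272 genes reached 1 TPM. The epithelial identity of the line was plain in keratins and adhesion genes. Summed levels of 13 epithelial and lung markers were 18497 to 19828 TPM in resistant and 17852 to 18376 TPM in control libraries. The lung markers NKX2-1, SFTPB and SFTPC were under 1 TPM in all libraries, while NAPSA, the other lung marker listed, passed the filter. Of markers of other cells, 10 of 12 fibroblast genes (DCN and LUM at 0; sums of 297 to 322 TPM in resistant and 384 to 395 TPM in control libraries, nearly all FBLN1, while COL1A1 was higher at 13.8 ± 0.753 TPM in resistant and 3.97 ± 0.261 TPM in control libraries), 5 of 7 endothelial genes (KDR and EMCN at 0), 7 of 10 immune genes (MS4A1 and LYZ at 0) and 7 of 7 muscle genes were under 1 TPM in every library. Endothelial sums were 5.85 to 7.47 TPM in resistant and 8.13 to 8.94 TPM in control libraries, where CDH5 was lower (3.45 ± 0.316 TPM in resistant and 7.24 ± 0.417 TPM in control libraries) and PECAM1 higher (2.80 ± 0.457 TPM in resistant and 0.912 ± 0.168 TPM in control libraries). Immune sums 6.50 to 7.999 TPM in resistant and 6.11 to 6.75 TPM in control libraries, and muscle sums stayed at or below 1.13 TPM. Because PEG10 is a placental gene, 9 trophoblast genes were read as well: 8 were under 1 TPM in all libraries, with CGA, CSH1, PAGE4 and XAGE2 at 0. Their sum was 1.03 to 2.20 TPM in resistant and 18.0 to 20.9 TPM in control libraries, nearly all of it HSD3B1, a steroid dehydrogenase gene at 1.36 ± 0.415 TPM in resistant and 18.9 ± 1.51 TPM in control libraries.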

How the data were processed

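Poly(A) RNA was sequenced from 3 crizotinib-resistant and 3 control libraries of H3122 cells with a stranded kit, per the labels' protocols. The authors deposited 1 table of TPM for 51537 genes, and per the submitters' processing notes HISAT2 was used, with no version given. Not given in the sources used here are the read counter, its strand setting, the genome build and the annotation. All 51537 identifiers occur in GENCODE 29, whose GRCh38 coordinates are printed. TPM keeps no depth: reads were estimated from each library's smallest step and GENCODE 29 exon lengths (66.97% to 67.7% of values came out whole within 0.01 read), and they serve as a guide only.

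The 16077 genes that reached 1 TPM in 3 or more libraries were fitted with limma 3.58.1 (R 4.3.3, statmod 1.5.0) on log2(TPM + 1), group as the only term, trended and robust empirical Bayes, two-sided tests and Benjamini-Hochberg adjustment. Differences are resistant minus control. The fit was tested on simulated data. Replicates of a group differed beyond counting noise (mean chi-square per gene 3.87 to 11.0), so none was treated as a copy. Errors are SD of TPM or SE of log2 differences.

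The 10 genes and all gene lists were chosen with earlier results of these data known. Named besides the 10 genes are up to 4 called genes per list whose higher group averaged 5 TPM or more, by size of difference, the nearest gene on each side with at least 1 TPM, all tested neighbours of PEG10 within 1 Mb, and a short set named whatever their result; other names were chosen after their values were seen. The result of 1 gene that the rule takes is not reported here. Of 243 list entries 236 were found by symbol or identifier; UHRF1 and 6 imprinted genes were not analysed here. Promoter and microRNA sequences are from RefSeq on GRCh38.p14. Alternatives were another pseudocount, other filters, median-ratio scaling, a replicate block, plain empirical Bayes, each library left out and other neighbour windows.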

Additional observations from a re-analysis of the deposited data

How the results depend on the processing

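As the 10 genes were chosen on this comparison, their values under the alternatives are a description. On the genome-wide scale the log2 difference of SGCE ran from -1.47 to -1.36, that of MEST from -0.90 to -0.81 and that of PHLDA2 from -0.53 to -0.34. The log2 difference of PEG10 was -7.71 with a pseudocount of 0.1, and relative to the median of its chromosome, an alternative chosen after seeing the data, it was -5.43. PEG10 minus SGCE was -6.23 with a pseudocount of 0.1. Leaving out 1 library at a time gave PEG10 differences from -5.76 to -5.66 and PEG10 minus SGCE from -4.34 to -4.27. H19 lost its call in 4 of the settings, given beside its values. Of the 17 other imprinted genes called, 13 to 17 kept their call, and MKRN3, GNAS-AS1, ZNF597 and TRAPPC9 were those lost most often. DIO3, CDKN1C, GNAS-AS1 and TRAPPC9 were not tested with a filter of 5 TPM, which keeps fewer genes.

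Neighbours of the 10 genes within 1 Mb numbered 95 tested, with 9 called higher and 38 lower. That stands beside 24.0% called higher and 24.7% called lower over all tested genes. Called higher were 4 with a filter of 5 TPM, 5 with the replicate block, 21 within 2 Mb and 5 to 7 when 1 library was left out. Called lower were 15 within 0.5 Mb and 86 within 2 Mb, where fewer and more genes are tested, and 33 to 40 when 1 library was left out. Same-numbered libraries did not deviate together (correlations of -0.06, -0.00 and -0.02), so the replicate block was kept as an alternative; with it PEG10 stayed at -5.72, and 3433 genes were called higher and 3423 lower, against 3852 and 3963 without it. Of the genes named with a call, MKRN3, ZNF597, TRAPPC9, ARID4B, IGF2BP2, IGF2BP3 and NDNL2 lost it with the replicate block. PEG10 rested on an estimated 7.06 to 18.2 reads in resistant libraries, and PLAGL1 on at most 2.83 reads in any library; why MEG3 and NDN were at 0 was not tested.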

Other observations

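Chromosome 7, which carries PEG10, SGCE, MEST and GRB10, was among those whose tested genes were lower as a whole in resistant libraries. Its median log2 difference was -0.29 over 789 genes, beside -0.47 over 263 genes of chromosome 13, -0.28 over 496 genes of the X chromosome and -0.00 over all tested genes. Chromosome 11, with H19, IGF2 and PHLDA2, had a median of 0.01 over 900 genes, and chromosome 21 had 0.30 over 155 genes.

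More than 1 Mb from PEG10 on the side of CASD1, and chosen after its values were seen, SAMD9, an interferon-responsive gene, had a log2 difference of -2.31 ± 0.17 (adjusted p = 4.49e-05 in limma), while its close relative and neighbour SAMD9L was not called (-0.11 ± 0.14, adjusted p = 0.549). CALCR, the calcitonin receptor gene, was listed at 0 in all resistant libraries and lay at 0.497 to 0.572 TPM in control libraries, below the filter.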
